A study of Mus musculus with 6 samples.

Results

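The genes described here are 9 genes of fatty acid oxidation, Acsl6, Cpt1a, Slc25a20, Cpt2, Acadvl, Acadl, Acadm, Hadha and Hadhb, out of 22180 genes with a probe set of their own on the array. They were chosen by gene symbol, with earlier results of these data known. All 9 were measured, by 10 probe sets among the 41345 on the array. Each gene is given by its brightest probe set, the one with the highest mean over the 6 arrays, and only Acsl6 has another. Naive CD8+ T cells from mouse spleen were activated with antibodies to CD3 (1 µg/ml) and CD28 (3 µg/ml) over 4 days. The Tc17 cultures received IL-6 and TGFb for 3 days, the Tc1 cultures received IL-12 for the same 3 days, and both had IL-2 on 1 further day. Tc17 names CD8+ T cells that produce IL-17, and Tc1 those that produce interferon-gamma. Neither mouse strain nor age is given in the labels, and no group was left without cytokine, so a difference does not say which culture moved.

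Each group had 2 biological samples and 1 technical array, read as a repeat of sample 2 and averaged with it, so every test set 2 Tc17 samples against 2 Tc1 samples. Nothing in the labels says that the samples came from separate animals, so p-values are not shown to measure the spread between animals. The p-values and intervals of limma combine a gene's spread between these samples with the spread typical of all probe sets. Values are log2 RMA intensities, in which a difference of 1 is a doubling of the signal, and array medians lay between 6.04 and 6.09. The label genes stood apart on the log2 scale. Il17f was higher in Tc17 by 6.09 and Il17a by 5.21 (limma adjusted p = 0.00244 and 0.00713). Ifng was lower in Tc17 by 5.49 and Tbx21 by 2.79 (limma adjusted p = 0.0056 and 0.00272). The 8 markers of CD8+ T cells had a mean level of at least 12.02 in Tc17 samples and 11.94 in Tc1 samples, and none of the 8 passed the test. The groups' arrays still did not overlap for 6 of these 8, 2 higher in Tc17 (15.2% of all genes) and 4 lower (14.5% of all genes). The 2 higher were Cd5 (0.45) and Cd2 (0.44), and the largest of the 4 lower was Cd28 (−0.30). Of 25 measured markers of other blood cells 2 passed, against 1.58% of all genes. Both were higher in Tc17: the myeloid lysozyme gene Lyz2 (by 3.53) and the granulocyte gene Ly6g (by 2.52). The mean level of those 25 markers was 6.30 to 6.33 in Tc17 samples and 5.95 to 6.01 in Tc1 samples. The granulocyte genes S100a8, S100a9, Elane and Csf3r lay between 4.14 and 5.94 in Tc17 and between 4.05 and 5.93 in Tc1, below every array median. The macrophage genes Adgre1 and Cd14 lay there too, at 5.23 and 5.39 in Tc17 and 4.85 and 5.14 in Tc1, while Csf1r and Cd68 lay above the medians (6.56 and 9.85 in Tc17, 6.28 and 9.99 in Tc1) and did not pass. Arrays of the groups did not overlap for 8 of the 25, all 8 higher in Tc17, against 15.2% of all genes higher and 14.5% lower. Of the 5 macrophage genes these were Lyz2, Csf1r, Adgre1 and Cd14. The rest of the 8 were Ly6g, S100a8, the NK cell gene Klre1 (5.38 in Tc17, 4.95 in Tc1) and the B cell gene Cd79b. Cd79b lay well above the medians, at 10.32 in Tc17 and 9.80 in Tc1. Arrays overlapped for the other measured B cell genes, Ms4a1, Cd79a and Pax5. The part of these markers in the differences below was not tested. In RNA from whole cultures, fewer cells of a type and less RNA per cell cannot be told apart.

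Long-chain fatty acids are burned in mitochondria in 3 kinds of step. An acyl-CoA synthetase first links the fatty acid to coenzyme A, and the carnitine shuttle then carries it through the mitochondrial membranes. Inside, acyl-CoA dehydrogenases for very long, long and medium chains start each round of shortening, and the trifunctional protein, made of the products of Hadha and Hadhb, completes the round for long chains. In CD8+ T cells this route is best known from memory cells and their spare respiratory capacity, whereas freshly activated effector cells lean on glycolysis.

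The upstream sequences of the genes on which the results turn are shown first, as the 250 bases before the annotated start in RefSeq, GRCm38.p6. Acsl6 and Acadl are shown because they differed between the cultures, Acadm because it lay on the side opposite to Acadl, and Hadha because its window serves Hadhb as well. Capitals mark a match to a motif searched in all 11 windows of the 9 genes, of which Acsl6 has 3.
Acsl6, chr11:54303574-54303823, plus strand: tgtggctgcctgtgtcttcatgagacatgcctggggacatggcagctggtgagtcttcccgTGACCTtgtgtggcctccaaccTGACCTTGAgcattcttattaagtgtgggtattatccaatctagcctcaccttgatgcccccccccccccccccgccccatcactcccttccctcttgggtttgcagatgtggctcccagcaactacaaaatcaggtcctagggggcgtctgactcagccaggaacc
Acadl, chr1:66863310-66863559, minus strand: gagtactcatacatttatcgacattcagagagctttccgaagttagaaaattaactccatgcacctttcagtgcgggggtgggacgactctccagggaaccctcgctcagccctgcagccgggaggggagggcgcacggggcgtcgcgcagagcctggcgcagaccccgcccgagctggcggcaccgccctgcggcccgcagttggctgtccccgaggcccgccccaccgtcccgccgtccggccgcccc
Acadm, chr3:153944644-153944893, minus strand: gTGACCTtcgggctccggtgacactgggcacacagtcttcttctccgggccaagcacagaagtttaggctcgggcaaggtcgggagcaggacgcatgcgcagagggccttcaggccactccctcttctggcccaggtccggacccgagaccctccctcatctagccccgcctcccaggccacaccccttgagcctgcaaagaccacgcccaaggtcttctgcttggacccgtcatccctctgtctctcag
Hadha, chr5:30154981-30155230, minus strand: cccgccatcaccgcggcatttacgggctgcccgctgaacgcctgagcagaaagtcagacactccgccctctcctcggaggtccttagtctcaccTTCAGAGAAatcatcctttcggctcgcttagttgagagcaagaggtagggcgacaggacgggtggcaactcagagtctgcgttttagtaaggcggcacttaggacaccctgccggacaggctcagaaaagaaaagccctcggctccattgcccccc

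The motifs were searched on both strands. The nuclear receptor hexamer AGGTCA, which PPAR and related factors bind in pairs, stood in 4 of the 11 windows, those of Acsl6, Acadm, Acadvl and Cpt1a, against 14.0% of the 32851 windows of all genes. Of the Acsl6 windows only the one shown held a match, and those before its other annotated starts held none of the motifs searched. In the window shown the hexamer occurs at 189 to 184 and at 167 to 162 bases before the start. The second of these is part of a longer match to TCAAGGTCA, the site of oestrogen-related receptors, at 167 to 159 bases before the start, a motif held by 0.387% of all windows and by no other window of the 9 genes. The tandem AGGTCANAGGTCA, the classical PPAR element (0.0335% of all windows), and GTCTAGAC, the palindrome bound by SMAD factors of the TGF-beta pathway (0.167%), were in none of the 11. The STAT motif TTCNNNGAA was in 3 windows (7.02% of all), those of Cpt2, Hadha and Hadhb. The Hadha and Hadhb windows overlap by 228 bases, since these genes are transcribed away from each other from starts with 272 bases between them, and their STAT match is the same stretch of DNA. The Acadl window held none of the motifs searched. These are matches of letters and not shown to be bound sites, and the windows cover the upstream 250 bases only.

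In the comparison of Tc17 with Tc1, which asks how cells activated with IL-6 and TGFb differ from cells activated with IL-12, 2 of the 9 genes passed an adjusted p of 0.05 and they lay in opposite directions. Acsl6 was 2.64-fold higher in Tc17 than in Tc1, and the Tc17 signal of Acadl was 0.633 of its Tc1 signal. Across all 22180 genes 1.58% passed, 0.992% higher and 0.591% lower. Acadm was 1.50-fold higher in Tc17 and did not pass, and the other 6 differed by at most 0.19 on the log2 scale. The median difference of the 9 genes was 0.04, against −0.013 over all genes.

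**Figure D1:**
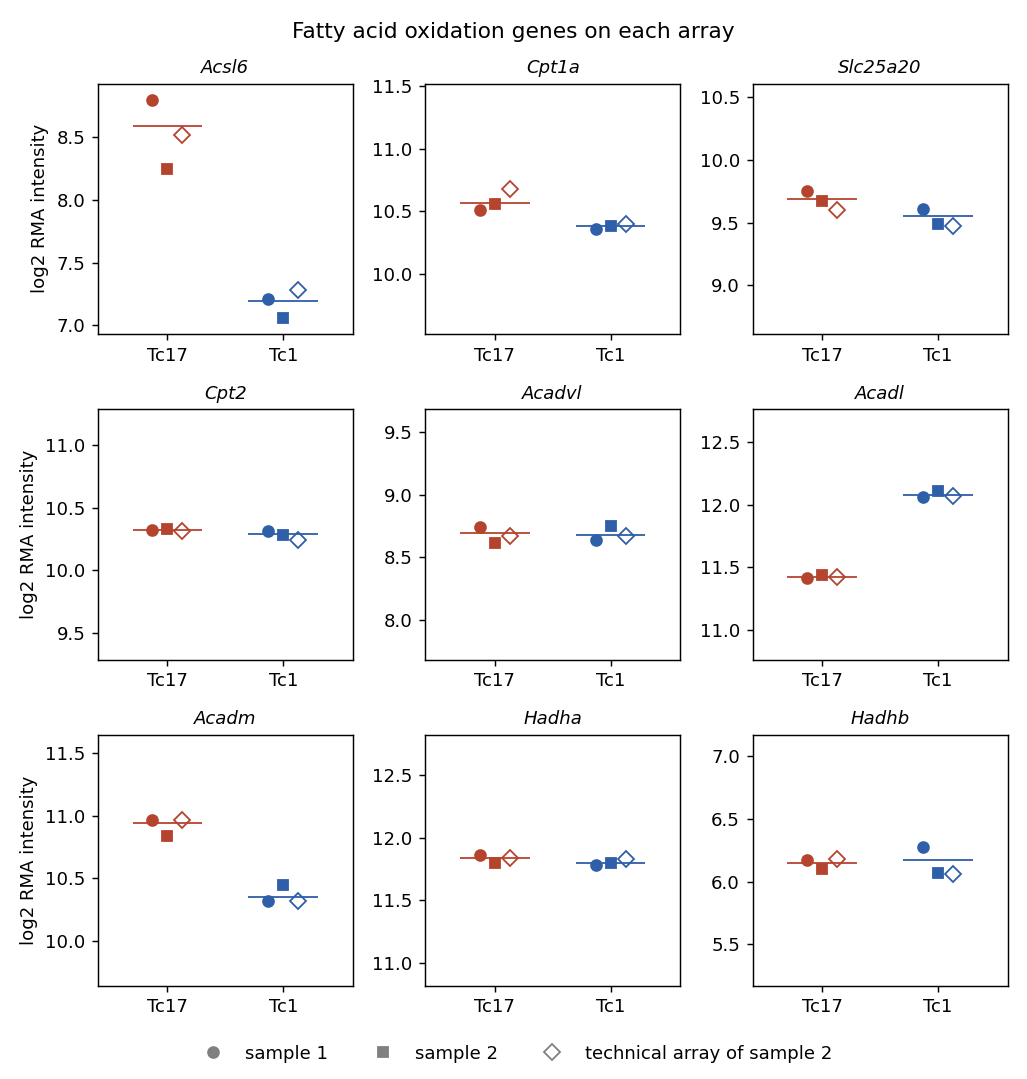
Log2 RMA intensity of the 9 genes on each array, Tc17 left and Tc1 right; filled circles and squares are samples 1 and 2, open diamonds the technical array of sample 2, and bars the mean of the 2 samples. Every panel spans 2 log2 units: Acsl6 and Acadm lie higher and Acadl lower in Tc17 on all arrays, and Cpt2, Acadvl, Hadha and Hadhb overlap.

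Acsl6 encodes a long-chain acyl-CoA synthetase, known mainly from brain, where it handles polyunsaturated fatty acids. It measured 8.80, 8.25 and 8.52 in Tc17 (sample 1, sample 2 and its technical array) against 7.21, 7.06 and 7.28 in Tc1. All Tc17 arrays lay above all Tc1 arrays, by 0.97 at the closest point, although the Tc17 arrays themselves spread over 0.55. The means were 8.59 ± 0.29 in Tc17 and 7.19 ± 0.03 in Tc1 (SD, n = 2 samples each), a log2 difference of 1.40 with a 95% confidence interval of 1.00 to 1.81 (limma adjusted p = 0.0437). Its absolute difference was larger than that of 98.8% of genes. The dimmer Acsl6 probe set did not show it: it measured 5.22, 4.99 and 5.01 in Tc17 and 5.28, 5.06 and 5.13 in Tc1. These values lie below every array median and overlap, with a difference of −0.08 (95% confidence interval −0.39 to 0.23). The call on Acsl6 therefore rests on the brighter probe set, and the mean of both had a difference of 0.66 (limma adjusted p = 0.145). With sample 1 or sample 2 of Tc1 left out the adjusted p was 0.184 or 0.179, with sample 1 of Tc17 left out 0.0911, and with the technical arrays left out 0.0787 (limma), while the difference kept its sign in each.

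Of the genes beside Acsl6 in RefSeq's order, Il3 also passed. Il3, a cytokine gene of activated T cells that acts on blood progenitors, measured 8.93, 8.23 and 7.82 in Tc17 against 5.64, 5.11 and 5.33 in Tc1. Its groups were 2.17 apart at the closest arrays, and its difference was 3.04 (95% confidence interval 2.16 to 3.92, limma adjusted p = 0.0437). The Tc1 mean of 5.43 is below every array median, so the difference holds for intensities and signal above background in Tc1 was not shown. Csf2, the next gene beyond Il3 and the gene of the growth factor GM-CSF, averaged 6.08 ± 0.31 in Tc17 and 6.26 ± 0.02 in Tc1 (SD, n = 2), and its arrays overlapped. These values of its brightest probe set lie near the array medians, so signal above background was not shown. The difference was −0.19 there and 0.22 for the mean of the gene's probe sets (limma adjusted p = 0.712 and 0.368), so its direction depends on the probe set. On the other side Meikin lay at 4.55 in Tc17 and 4.58 in Tc1. Fnip1, whose product binds folliculin and AMPK, was 0.55 higher in Tc17 and did not pass (limma adjusted p = 0.244). Of the 32 measured protein-coding neighbours of the 9 genes, taken as the nearest on each side and the next beyond, Il3 was the 1 gene that passed, against 1.58% of all genes, and the groups' arrays did not overlap for 12, against 29.7% of all genes. Their median difference was −0.04. The call on Il3 was lost when sample 1 or sample 2 of Tc1, or sample 1 of Tc17, was left out (limma adjusted p = 0.149, 0.17 and 0.0818). The neighbours were looked at after the values of Acsl6 were known.

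**Figure D2:**
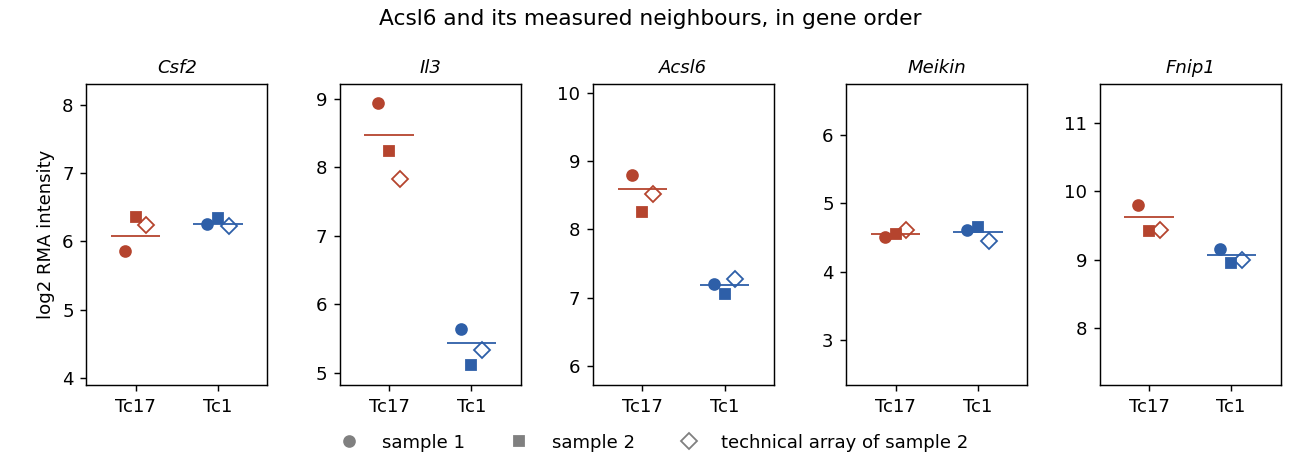
Log2 RMA intensity of Acsl6 and its measured neighbours in chromosomal order, Tc17 left and Tc1 right, with symbols for samples and the technical array and bars for the mean of 2 samples. Each gene is shown by its brightest probe set, and all panels span 4.4 log2 units. Il3 and Acsl6 stand higher in Tc17, while Csf2 and Meikin overlap.

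The carnitine shuttle showed small differences, none of which passed. Cpt1a encodes the carnitine palmitoyltransferase of the outer mitochondrial membrane, the regulated entry step of the pathway. It measured 10.51, 10.56 and 10.68 in Tc17 against 10.36, 10.38 and 10.40 in Tc1. The groups did not overlap, but the closest arrays were only 0.11 apart, and the difference of 0.19 had a 95% confidence interval of −0.02 to 0.40 (limma adjusted p = 0.427). Slc25a20, the carrier that exchanges acylcarnitine for carnitine across the inner membrane, measured 9.75, 9.67 and 9.60 in Tc17 against 9.61, 9.49 and 9.47 in Tc1. Its arrays overlapped at the edges, and its difference was 0.15 (95% confidence interval −0.09 to 0.38). Cpt2, which returns the acyl group to coenzyme A inside the mitochondrion, measured 10.32, 10.33 and 10.31 in Tc17 against 10.31, 10.28 and 10.24 in Tc1. Its interval of −0.16 to 0.23 around a difference of 0.03 corresponds to ratios of Tc17 to Tc1 between 0.896 and 1.17.

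Of the 3 acyl-CoA dehydrogenases Acadl was lower in Tc17, Acadm lay higher without passing and the difference of Acadvl was near 0. Acadl encodes the long-chain enzyme and measured 11.41, 11.44 and 11.42 in Tc17 against 12.06, 12.11 and 12.07 in Tc1. The spread within a group was 0.03 in Tc17 and 0.05 in Tc1, and the groups were 0.63 apart at the closest arrays. The means were 11.42 ± 0.01 in Tc17 and 12.08 ± 0.02 in Tc1 (SD, n = 2), a difference of −0.66 (95% confidence interval −0.85 to −0.47, limma adjusted p = 0.0428). The standard error behind this interval was 0.07, because limma also draws on the spread of all probe sets. Leaving out sample 1 or sample 2 of Tc1 gave a limma adjusted p of 0.176 or 0.175, and leaving out sample 1 or sample 2 of Tc17 gave 0.245 or 0.188, while the difference stayed between −0.67 and −0.65. It was 0.0592 without the technical arrays and 0.0502 after quantile normalization.

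Acadm, the medium-chain enzyme, lay on the other side. It measured 10.97, 10.84 and 10.97 in Tc17 against 10.32, 10.45 and 10.32 in Tc1, so the groups were 0.38 apart at the closest arrays. The difference was 0.58 (95% confidence interval 0.38 to 0.79) and did not pass over all probe sets (limma adjusted p = 0.0661). It passed with probe sets restricted to the brighter ones, and when the technical array entered as a sample or in a random block (limma adjusted p = 0.0459, 0.0065 and 0.0085). A technical array is not a biological replicate, and the settings that entered it so called 2318 and 2074 probe sets, against 418 as reported. Acadvl, the very-long-chain enzyme, measured 8.74, 8.61 and 8.67 in Tc17 against 8.64, 8.75 and 8.67 in Tc1. Its arrays were interleaved, and its interval ran from −0.20 to 0.23 around 0.01, a direction that changed with the processing.

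The trifunctional protein genes showed no difference past the test. Hadha, the subunit with the hydratase and long-chain 3-hydroxyacyl-CoA dehydrogenase activities, measured 11.86, 11.80 and 11.84 in Tc17 against 11.78, 11.80 and 11.83 in Tc1. Its arrays overlapped, and the interval of the difference was −0.16 to 0.23. Hadhb, the thiolase subunit, measured 6.17, 6.10 and 6.18 in Tc17 against 6.28, 6.07 and 6.06 in Tc1. These values lie at or just above the array medians, so signal above background was not shown for Hadhb, and its difference was −0.02 (95% confidence interval −0.28 to 0.24). Over all 9 genes the arrays of the groups did not overlap for 4, namely Acsl6, Cpt1a, Acadl and Acadm, which is 44.4% against 29.7% of all genes. Because the 9 genes were chosen with earlier results known, neither this share nor the number that passed is a test of the set.

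**Figure D3:**
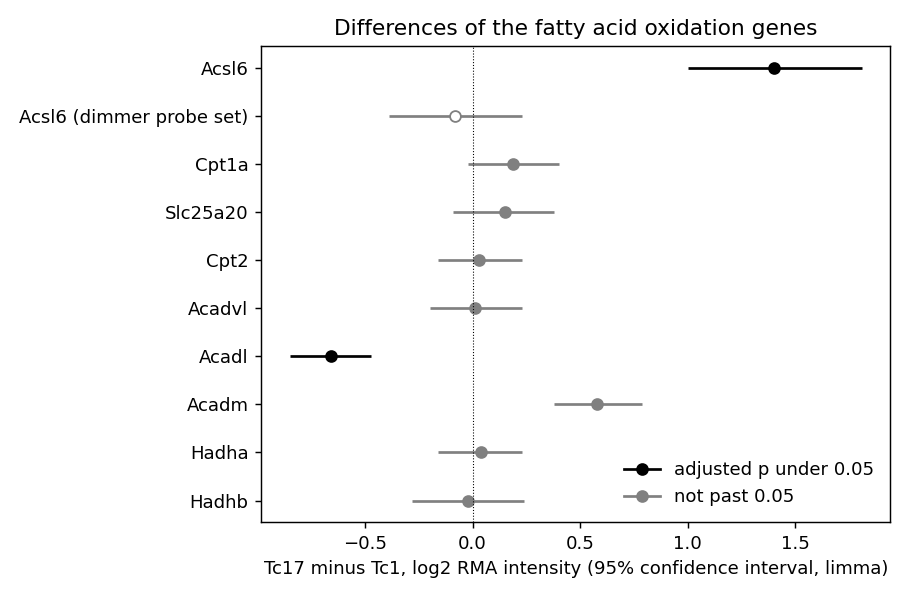
Difference of Tc17 minus Tc1 in log2 RMA intensity for the 10 probe sets of the 9 genes, with limma's 95% confidence interval from 2 samples per group; black marks an adjusted p under 0.05 and the open symbol the dimmer Acsl6 probe set. Acsl6 and Acadl lie on opposite sides of 0, Acadm lies above 0 without passing, and the other intervals include 0.

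The spread behind these values was near that of all genes or below it. Over all genes samples 1 and 2 differed by a median of 0.10 in Tc17 and 0.11 in Tc1. Sample 2 and its technical array differed there by a median of 0.08 and 0.07. In Tc17 the arrays of samples 1 and 2 differed by a median of 0.06 over the 9 genes and by 0.55 at most (Acsl6), and in Tc1 by a median of 0.11 and by 0.21 at most (Hadhb). Sample 2 and its technical array differed by a median of 0.07 in Tc17 and 0.04 in Tc1, with Acsl6 the farthest apart in both groups at 0.27 and 0.22. For Acsl6 in Tc1 the repeat of a sample lay farther from it than sample 1 lay from sample 2.

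The profile over the 6 arrays was compared with those of all other genes by the distance between mean-centred log2 values. Nearest to Acsl6 were Cttn, the gene of the actin-binding protein cortactin (distance 0.21), the gene Tmem95 (0.24), the galactosyltransferase gene B4galt4 (0.26) and Nfe2l2 (0.31), the gene of the oxidative stress factor NRF2. Their differences were 1.54, 1.33, 1.23 and 1.22, and B4galt4 and Nfe2l2 passed (limma adjusted p = 0.0282 and 0.0205). Nearest to Acadl, a gene chosen for this after its values were seen, were Ncf1 (0.09), a subunit of the phagocyte oxidase, the annexin gene Anxa6 (0.10), the immunoproteasome gene Psmb10 (0.10) and the chondroitin synthase gene Chsy1 (0.11). These 4 had differences between −0.64 and −0.58, and none passed (limma adjusted p from 0.0505 to 0.0704). For the neighbours of both profiles a difference of like size follows from the way they were chosen. Their differences and calls are therefore no separate result.

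A wider set of 116 genes around the pathway, of which 106 had a probe set, gave 1 gene that passed, Prkag2, against 1.58% of all genes, so the share that passed was no higher than among all genes. Prkag2 encodes a gamma subunit of the energy sensor AMPK, the kinase that relieves the block on Cpt1a by phosphorylating acetyl-CoA carboxylase. It measured 8.76, 8.82 and 8.68 in Tc17 against a mean of 8.02 ± 0.02 in Tc1 (SD, n = 2), whose arrays lay within 0.05 of each other, and the groups were 0.63 apart at the closest arrays. The difference was 0.73 (limma adjusted p = 0.0339). With any single sample left out its adjusted p lay between 0.146 and 0.211, and it was 0.0605 with the trend and robust settings of eBayes (limma). Differences were above 0 for 69 of the 106 genes, or 65.1%, against 45.8% of all genes, with a median of 0.16 against −0.013. The groups' arrays did not overlap for 46 of the 106, 38 of them higher (15.2% of all genes) and 8 lower in Tc17 (14.5% of all genes). Of the 106 genes 97 lay above the median level of all probe sets, so all genes are not a background of matched level. The part of level in these shares was not tested, and the lists were chosen with earlier results of these data known.

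Synthetases, fatty acid carriers and carnitine genes held no call. Among 16 synthetases and carriers the median difference was 0.11, and Acsf2, an acyl-CoA synthetase, had the largest, 9.36, 9.42 and 9.35 in Tc17 against 8.88, 8.86 and 8.79 in Tc1 (difference 0.52, limma adjusted p = 0.0747). Slc27a1, a fatty acid transport protein, followed at 0.47. The other measured long-chain synthetases Acsl4 and Acsl5 had differences of 0.20 and −0.14. Among 6 further carnitine genes the median was 0.10, and the largest values were 0.47 for Slc22a21, a carnitine transporter of the mouse, and 0.44 for Cpt1c, the brain form of Cpt1. Cpt1b had no probe set of its own symbol and was not analysed here, and the same holds for Acsl1 and Acsl3.

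Other dehydrogenase, electron transfer, hydratase, thiolase and auxiliary genes lay mostly above 0, though not all of them act in the same steps as the 9 genes. Of 9 other acyl-CoA dehydrogenases and electron transfer genes 8 had a difference above 0 (median 0.26), led by Acadsb (0.35) and Acad11 (0.31), and none passed. Etfa and Etfb, the subunits of the flavoprotein that takes electrons from the dehydrogenases, had differences of −0.11 and 0.26. Of 12 hydratase, thiolase and auxiliary genes 8 lay above 0 (median 0.18), led by the thiolase Acaa2 (0.36) and the epimerase Mcee of propionyl-CoA breakdown (0.28). Neither passed (limma adjusted p = 0.192 and 0.25).

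Of 15 peroxisomal genes none passed, 9 lay above 0 and 6 below, and the median was 0.10. Acox3, a peroxisomal oxidase of branched acyl-CoA, measured 9.37, 9.32 and 9.36 in Tc17 against 8.37, 8.72 and 8.66 in Tc1 (difference 0.83, limma adjusted p = 0.0875). The peroxisomal transporter Abcd3 had a difference of 0.67, its Tc17 arrays standing at 10.06 (sample 1), 9.27 and 9.25 (sample 2 and its repeat), against 9.14, 8.85 and 8.84 in Tc1. Its difference was 0.27 without sample 1 of Tc17 and 1.07 without sample 2. Among 10 genes of lipolysis and lipid stores the median was 0.30, the highest of the 10 lists, and the arrays did not overlap for 7 that were higher in Tc17 (15.2% of all genes) and 1 that was lower (14.5% of all genes). Dgat1 and Dgat2, which both make triglyceride, lay on opposite sides. Dgat1 measured 12.66, 12.65 and 12.66 in Tc17 against 11.87, 12.02 and 12.02 in Tc1 (difference 0.71, limma adjusted p = 0.0537). Dgat2 had a difference of −0.34 with no overlap of arrays (limma adjusted p = 0.327). Plin2, a lipid droplet coat protein, had a difference of 0.57 (limma adjusted p = 0.0854).

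Of the 10 genes of malonyl-CoA and energy sensing 7 lay above 0 (median 0.16). The arrays did not overlap for 5 that were higher in Tc17 (15.2% of all genes) and 1 that was lower (14.5% of all genes). Besides Prkag2, the AMPK subunit genes Prkab2 and Prkag1 had differences of 0.59 and 0.31 that did not pass (limma adjusted p = 0.0704 and 0.41). Acacb and Mlycd, which make and remove the malonyl-CoA that restrains Cpt1a, had differences of 0.12 and −0.15. Acacb lay at 6.45 in Tc17 and 6.33 in Tc1, just above the array medians, so signal above background was not shown for it. The brighter carboxylase gene Acaca lay at 9.92 in Tc17 and 9.83 in Tc1, a difference of 0.09 with overlapping arrays. Of 14 transcriptional regulators none passed, 6 lay above 0 and 8 below, and the median was −0.03. The receptor genes Ppara, Ppard and Pparg differed by −0.13, 0.03 and −0.05. Esrra and Esrrg, genes of oestrogen-related receptors, differed by −0.04 and −0.03, with overlapping arrays. Ppara lay near the array medians, at 6.04 in Tc17 and 6.17 in Tc1. The coactivator gene Ppargc1a lay at 4.36 in Tc17 and 4.35 in Tc1, below every array median. Rxra, the partner of the PPARs, and Lpin1, which works both as a lipid phosphatase and as a coactivator, differed by 0.45 and −0.34, neither of which passed. The difference of Lpin1 was −0.10 without sample 1 of Tc17 and −0.58 without sample 2. Among 7 genes of mitochondrial deacylation and uncoupling Sirt5 (0.56) and Pdk2 (0.38) had the largest differences (median 0.01), and among 7 thioesterases Them4 (0.41) and Acot7 (0.25) did (median 0.12). The difference of Them4 was 0.10 without sample 1 of Tc17, below that of Acot7 (0.26), and 0.72 without sample 2 of Tc17.

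**Figure D4:**
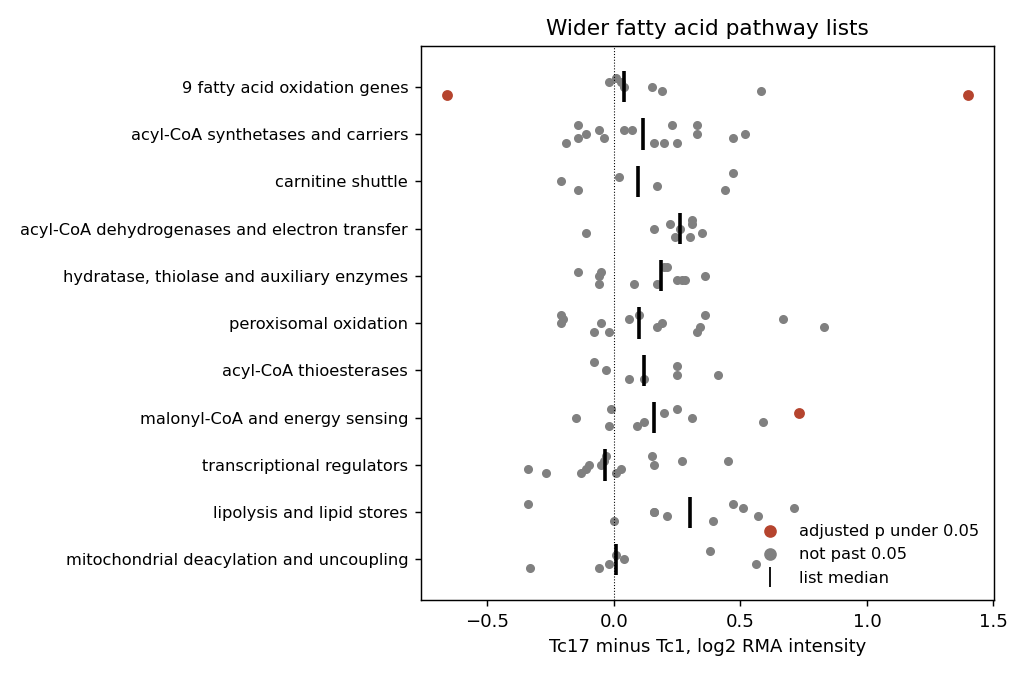
Difference of Tc17 minus Tc1 in log2 RMA intensity for the 9 fatty acid oxidation genes and 106 genes of 10 wider lists; each point is a gene, red marks an adjusted p under 0.05 and the black bar the list's median. Red points are Acsl6, Acadl and Prkag2, and list medians run from −0.03 to 0.30.

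**Figure D5:**
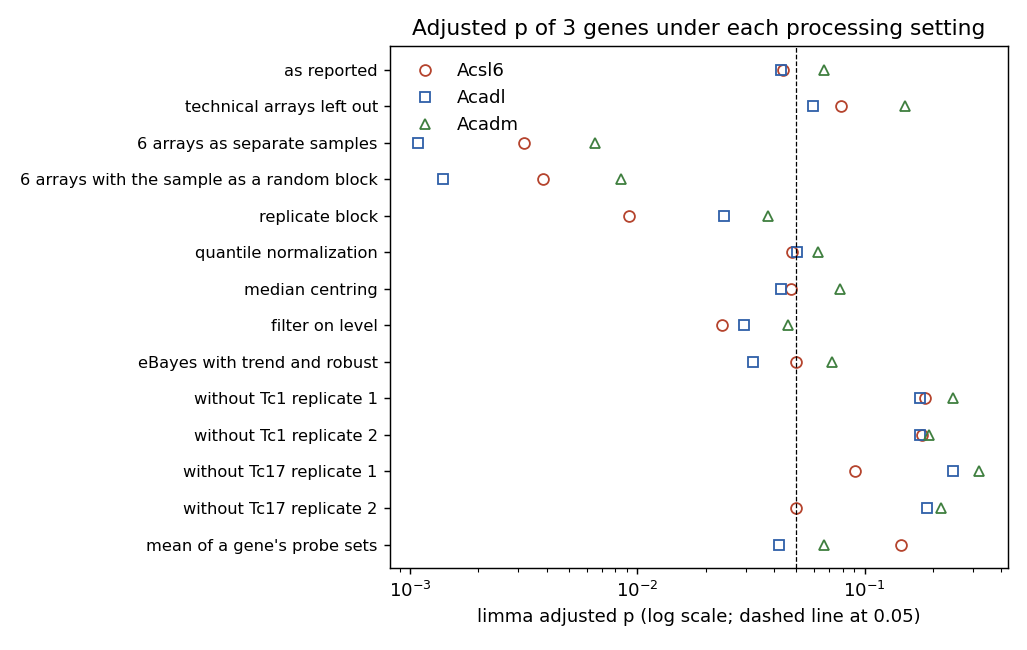
Limma adjusted p (log axis) of Acsl6, Acadl and Acadm under the reported setting and 13 alternatives, with a dashed line at 0.05. Acsl6 and Acadl lie just below the line as reported, and Acadl lies above it whenever any of the 4 samples is left out.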

How the data were processed

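The series held 6 single-colour Affymetrix arrays of total RNA, 3 per group. The authors deposited log2 intensities; RMA and Partek are named, without versions, in the submitters' processing notes. RMA subtracts background, forces the arrays to a common distribution and combines the probes into 1 value, so levels are relative between arrays. Genome build and detection calls are not given in the sources used here. The number of arrays limits the precision.

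Gene names came from the platform annotation (1 symbol for 23521, several for 1814, none for 16010). Technical arrays were averaged with sample 2 of their group. Tc17 minus Tc1 was fitted on all 41345 probe sets with limma 3.58.1 in R 4.3.3 (lmFit, eBayes, group means; 2 residual and 2.63 prior degrees of freedom), with Benjamini-Hochberg adjustment over all of them and a threshold of 0.05. The code was tested on simulated data. Differences within the 9 genes and lists are described without a set test. RefSeq GRCm38.p6 gave sequences and gene order, and all 9 genes matched it by Entrez identifier. The members and lists were chosen with earlier results of these data known. Named genes were the 9, every called gene of the wider lists with the next 2 of each list by size, and the nearest 4 profiles. Other list members and the neighbours of Acsl6 were named after their values were seen. Ucp2 was among the genes of the lists without a probe set of 1 symbol and was not analysed here. Figures used matplotlib 3.10.9.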

Additional observations from a re-analysis of the deposited data

How the results depend on the processing

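With 2 samples per group, the calls on Acsl6 and Acadl sit close to the threshold, while their differences kept their sign in all 13 alternatives (0.66 to 1.61 for Acsl6, −0.67 to −0.63 for Acadl). The number of the 9 genes called, 2 as reported, was 0 without the technical arrays, 1 after quantile normalization and 1 when the probe sets of a gene were averaged. Leaving out each biological sample in turn gave 0 to 1, and 1 only without sample 2 of Tc17 (Acsl6). The median difference was 0.06 after quantile normalization and ran from 0.03 to 0.09 leaving out each sample. Over all probe sets 418 were called as reported. That count was 2318 with 6 arrays as separate samples, 2074 with the sample as a random block, 648 with a filter on level and 48 to 125 leaving out each sample. In the same order the wider lists gave 15, 14, 3 and 0 genes, against 1. With a sample left out, the lone sample of its group is assumed to vary like the other group. With the replicate number as a block (replicate block), 1535 probe sets and 7 wider genes were called, and Acadm passed (limma adjusted p = 0.0375). Deviations of samples with the same number correlated at 0.313 over probe sets, but no label says that the number marks a shared animal or day and there are only 2 pairs, so the numbers are not taken as pairs. Differences near 0 changed sign: Acadvl was −0.02 without the technical arrays, −0.02 with 6 separate arrays, −0.01 with the random block, −0.04 after quantile normalization, and −0.04 to 0.06 leaving out each sample. Hadhb was 0.01 with 6 separate arrays and with the random block, and −0.13 to 0.09 leaving out each sample. Csf2 was 0.22 when its probe sets were averaged and −0.41 to 0.03 leaving out each sample, and Meikin −0.06 to 0.00. The cause of these shifts was not tested. Without detection calls, a dim probe set such as that of Hadhb cannot be told from one without signal.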
